A study of Mus musculus and unidentified plasmid with 60 samples.

Results

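Binding of a dominant-negative RFX protein was examined in 3 stretches of the mouse genome that hold large clusters of olfactory receptor genes. In mm9 they were chr2:85000000-90200000, chr7:109500000-116000000 and chr9:37400000-40000000, together 14.3 Mb. Members were all listed regions that overlapped one of them: 437 of the 173231 regions listed for silenced neurons (0 h) and 304 of the 122135 listed after 1 h of depolarization. The territories were defined by position alone, though they were chosen with earlier results of these data known. By territory, the 0 h list held 103 regions on chromosome 2, 253 on chromosome 7 and 81 on chromosome 9, and the 1 h list held 67, 182 and 55.

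Neurons were cultured from the cortex of E16 embryos of CD-1 mice, and on day in vitro (DIV) 2 a lentivirus brought an RFX dominant negative (RFX-DN) into the cultures of both times. All were also silenced overnight from DIV 6 with tetrodotoxin plus the NMDA-receptor blocker DL-2-amino-5-phosphonopentanoic acid. On DIV 7 one group received 55 mM KCl for 1 h and the other none (0 h), followed by ChIP-seq against MYC. Each time had 2 libraries, combined by the authors into 1 list of bound regions. Each region carries a peak centre in 1 or both of 2 replicate columns, called first and second here, whose names do not tie them to a library. No promoter or cell type is named for the lentiviral construct, and nothing says whether the 2 libraries came from separate cultures. The lists hold no expression values, so the neurons could not be checked against marker genes. Another list, titled WT, held 43 regions, of which 0 lay in the territories, which allows a share of up to 6.98% (3 of 43 counts, counting error only). The 0 h list had 437 of 173231 there, so a list of 43 is too short for its count of 0 to show sparseness.

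Olfactory receptors are G protein-coupled receptors that detect odorants. In an olfactory sensory neuron a single receptor gene is active, and in most other cells, cortical neurons included, the clusters are largely silent. RFX proteins are transcription factors that bind the X-box, an imperfect inverted repeat found in promoters of ciliary genes among others. A dominant-negative form interferes with the native proteins, and depolarization with KCl is a common way to set off activity-dependent transcription in cultured neurons.

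The gene content of such clusters could be described only from a RefSeq annotation of another build, GRCm38.p6, whose positions were not set against the mm9 regions. In its gene order, chromosome 2 held 287 protein-coding Olfr genes, chromosome 7 held 239 and chromosome 9 held 130. On chromosome 2 the longest unbroken run had 123 Olfr genes, between Pramel6 and Ptprj, and a run of 93 preceded it after Fads2b, with only 2 other genes between the runs. On chromosome 9 runs of 40, 29 and 25 Olfr genes followed one another after Panx3, a pannexin channel gene, parted by 1 other gene each time. Chromosome 7 was more broken up. Its Olfr genes fell into 19 runs, the longest of 42 between Ovch2 and Nlrp10. The beta-globin genes Hbb-bt and Hbb-y stood at the edges of a gap of 5 other genes, and 21 other genes parted the run that ended with Olfr692 from the run that began with Olfr693. Which mm9 regions fall in these runs was not tested, and the identity of the territories rests on the borders given.

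The letters of the bound regions are not shown, since no mm9 genome was used here. Windows around annotated start sites of receptor genes, called promoters here, are shown in their place to give the base composition near such genes. RefSeq promoters in GRCm38.p6, from 250 bases before to 50 after a start site, were matched to 561 Olfr genes of chromosomes 2, 7 and 9 by symbol, 564 promoters in all. Their median GC content was 34.3%, against 52.7% over all 32851 promoters. The median number of CG dinucleotides was 1 against 7, and 34.9% held none, against 5.43% of all promoters. Below is 1 promoter from the longest run of each chromosome, the one nearest the run's median composition, 5′ to 3′ with CG in capitals. They lie at chr2:87802141-87802440 (plus strand), chr7:108346930-108347229 (minus strand) and chr9:38108438-38108737 (plus strand), all in GRCm38.p6.
Olfr1143: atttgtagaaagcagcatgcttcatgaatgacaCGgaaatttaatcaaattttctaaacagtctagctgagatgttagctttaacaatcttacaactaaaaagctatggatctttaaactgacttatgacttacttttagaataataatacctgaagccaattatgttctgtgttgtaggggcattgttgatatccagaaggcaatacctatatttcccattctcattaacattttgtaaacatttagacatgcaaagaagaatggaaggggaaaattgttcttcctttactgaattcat
Olfr493: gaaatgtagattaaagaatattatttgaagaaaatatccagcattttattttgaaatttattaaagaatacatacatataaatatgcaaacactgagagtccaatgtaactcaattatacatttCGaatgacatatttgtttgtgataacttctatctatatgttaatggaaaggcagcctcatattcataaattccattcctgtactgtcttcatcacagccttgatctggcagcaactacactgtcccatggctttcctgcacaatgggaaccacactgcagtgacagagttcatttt
Olfr888: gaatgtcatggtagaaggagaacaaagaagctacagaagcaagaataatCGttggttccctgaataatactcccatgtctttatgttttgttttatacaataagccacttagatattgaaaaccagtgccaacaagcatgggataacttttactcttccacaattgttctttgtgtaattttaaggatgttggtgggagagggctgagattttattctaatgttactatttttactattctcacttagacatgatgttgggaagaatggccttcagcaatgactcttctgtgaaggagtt
Each of the 3 holds a single CG, and their GC contents were 32%, 33% and 36.3%. In all 3 the last 50 bases open with atg, the letters of a start codon. The annotated start may thus be that of the coding sequence. Whether the Olfr windows hold the starts of transcription was not tested. The X-box was searched on both strands as GTTNCC, then 3 bases of any kind, then GNAAC. It was found in 0 of the 564 promoters and in 0 of the 948 Olfr promoters of all chromosomes, against 264 of all 32851 (0.804%). Counts of 0 allow up to 3, or 0.532% of the 564 and 0.316% of the 948, and no other spacing was searched. The shorter GTTGCC, also on both strands and overlapping the X-box where its N is G, was found in 28 of the 564 (4.96%), against 12.5% of all promoters. These are counts of letters in this window, and they were not tied to any bound region. If Olfr windows lie on coding starts and others on transcription starts, the motif and composition contrasts set unlike windows side by side. They do not show that the promoters of Olfr genes lack an X-box. Both motifs hold G and C letters, and the counts were not adjusted for the lower GC content of Olfr promoters. The part of base composition in the lower shares was not tested.

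All 3 territories held fewer listed regions per Mb than the rest of their chromosomes, at both times. The territory on chromosome 2 was the sparsest, with 19.8 regions per Mb at 0 h against 73.7 elsewhere on the chromosome, which is 3.72-fold lower. At 1 h it held 12.9 against 51.5, a ratio of 0.250. The territory on chromosome 9 held 31.2 regions per Mb against 80.4 at 0 h and 21.2 against 56.4 at 1 h, lower by 2.58-fold and 2.66-fold. For chromosome 7 the densities were 38.9 against 68.2 at 0 h and 28.0 against 47.9 at 1 h, lower by 1.75-fold and 1.71-fold. Bound bases were scarcer still, since members were also narrower. At 0 h they covered 5.97 bases per kb of the territories and 16.7 per kb of the rest, and at 1 h 4.14 and 11.8.

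**Figure D1:**
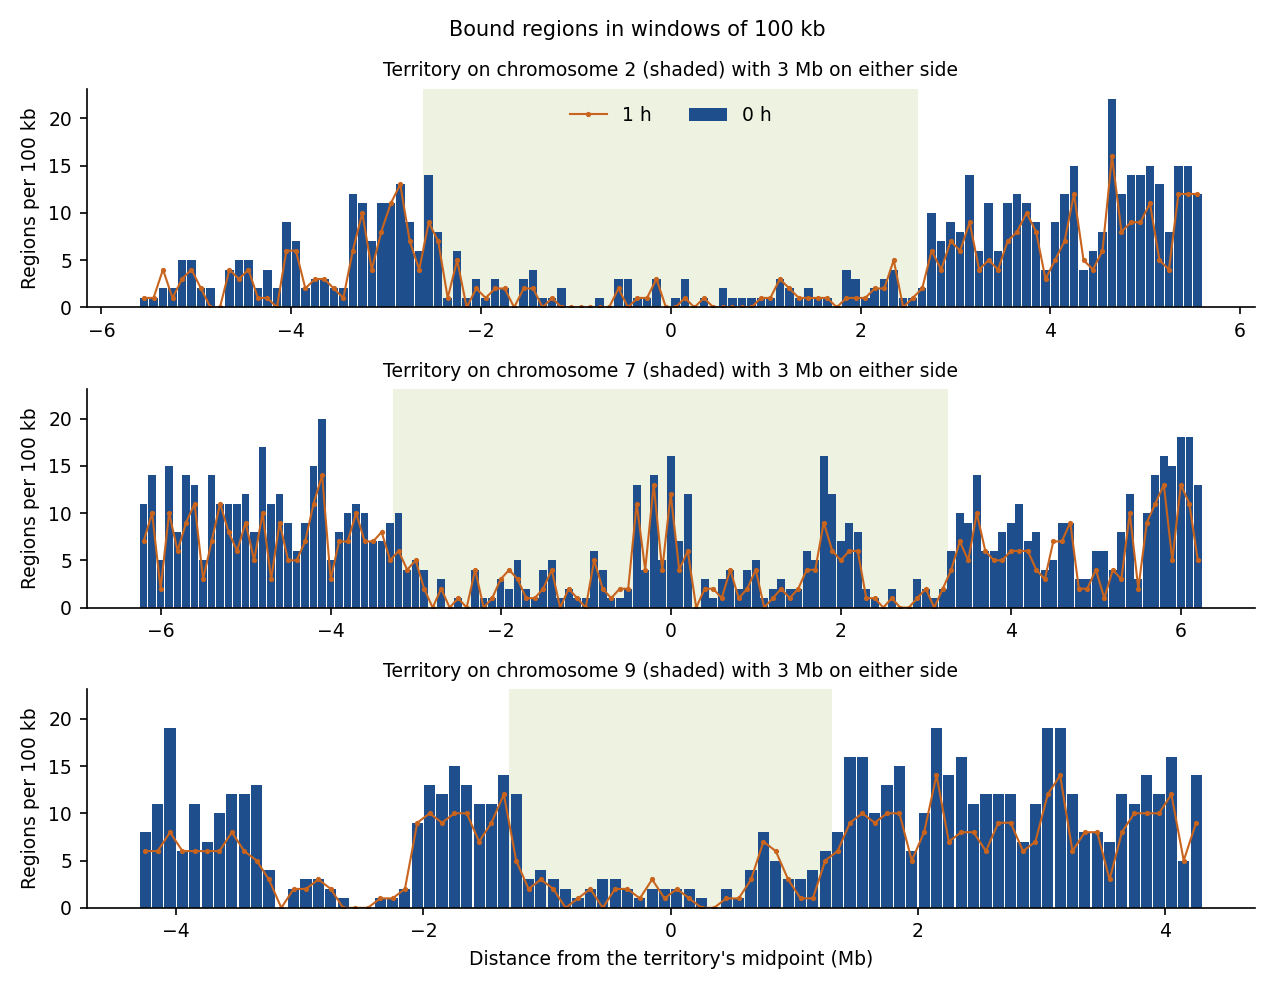
Number of listed regions in windows of 100 kb against the distance from each territory's midpoint in Mb, with bars for 0 h, a line for 1 h and shading for the territory. At 0 h the Mb outside each border holds 84 to 127 regions and the Mb inside it 13 to 39, with 10 to 14 still in the first 100 kb inside the left borders, and the territory on chromosome 7 holds a pair of crowded stretches.

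The sparseness was present in each replicate column. On chromosome 2, the territory held 17.3 and 11.7 peak centres per Mb in the first and second 0 h columns and 11.9 and 6.73 in the 1 h columns. The rest of the chromosome held 66.3 and 52.9 at 0 h and 48.4 and 31.7 at 1 h, so no column of the territory reached any column of the rest. On chromosome 9, the territory held 27.3 and 15.8 centres per Mb at 0 h and 20.4 and 7.69 at 1 h, against 72.5, 59.0, 52.5 and 35.8 in the rest. On chromosome 7, the territory held 34.3 and 24 at 0 h and 25.8 and 14 at 1 h, against 61.3, 49.6, 44.9 and 30.5. Here the highest territory column, at 0 h, lay above the lowest column of the rest, at 1 h, while within each column the territory was lower.

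Relative to the rest of the 3 chromosomes, the density of centres in the territories averaged 0.371 ± 0.0477 in the 0 h columns and 0.362 ± 0.0666 in the 1 h columns (SD, n = 2 each). The 4 columns ranged from 0.315 to 0.409, and the columns of each time overlapped. The first column gave the higher ratio in each list, 0.405 against 0.337 at 0 h and 0.409 against 0.315 at 1 h. The change from 0 h to 1 h was -0.00884, with a two-sided exact permutation p of 1. By territory the changes were -0.0120 on chromosome 2 (exact permutation p = 0.667), -0.00402 on chromosome 7 (exact permutation p = 1) and -0.0201 on chromosome 9 (exact permutation p = 1). After Benjamini-Hochberg adjustment over these 4 comparisons each p was 1. With 2 columns against 2 no p can fall below 0.333, so this design could not show a change at a threshold of 0.05, and these p-values measure only the spread between the columns.

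**Figure D2:**
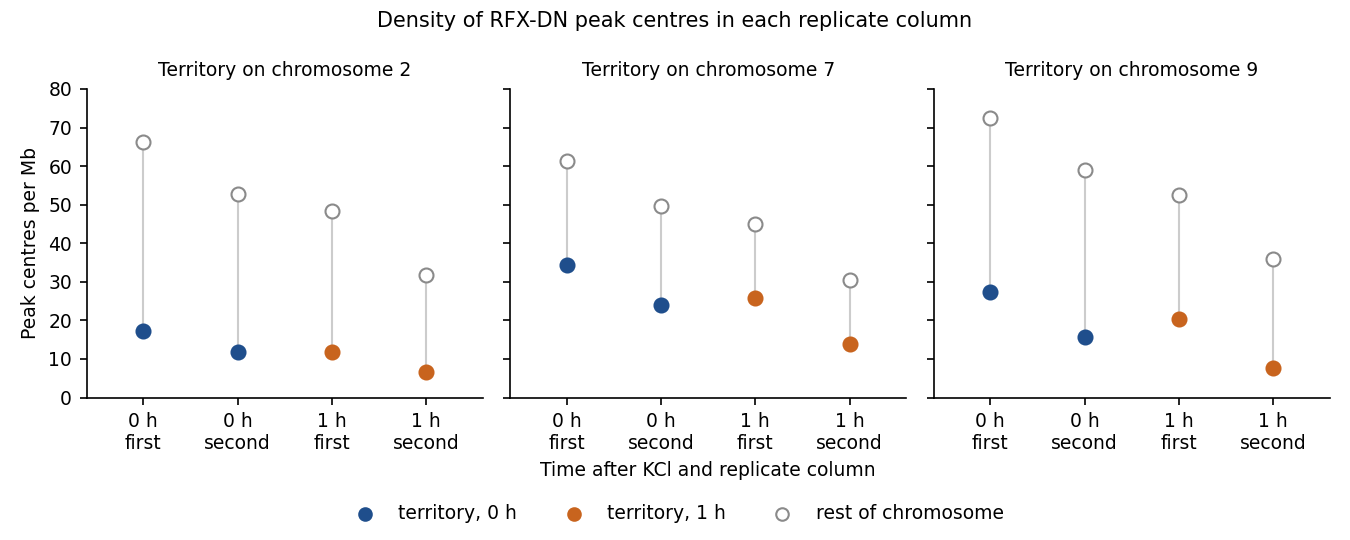
Peak centres per Mb in each replicate column at 0 h and 1 h, for each territory (filled) and the rest of its chromosome (open), joined by a line. In all 4 columns of all 3 chromosomes the filled point lies below the open one.

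Windows of the same length elsewhere showed how far the territories stood from their surroundings. When chromosome 2 was tiled in windows of 5.2 Mb, its territory held fewer regions than each of the 32 other windows at both times, whose lowest held 22.1 per Mb at 0 h and 16.7 at 1 h. On chromosome 9, tiled in windows of 2.6 Mb, 1 of 45 other windows held fewer at 0 h, and at 1 h none held fewer and the lowest held the same number. On chromosome 7, tiled in windows of 6.5 Mb, 5 of 21 other windows held fewer at 0 h and 4 at 1 h. Over chromosomes 1 to 19, 0.445% of 449 windows were sparser than the territory on chromosome 2 at 0 h. For chromosomes 7 and 9 the shares were 9.24% of 357 windows and 10.8% of 909. These ranks are a description of tiled windows and not a test.

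**Figure D3:**
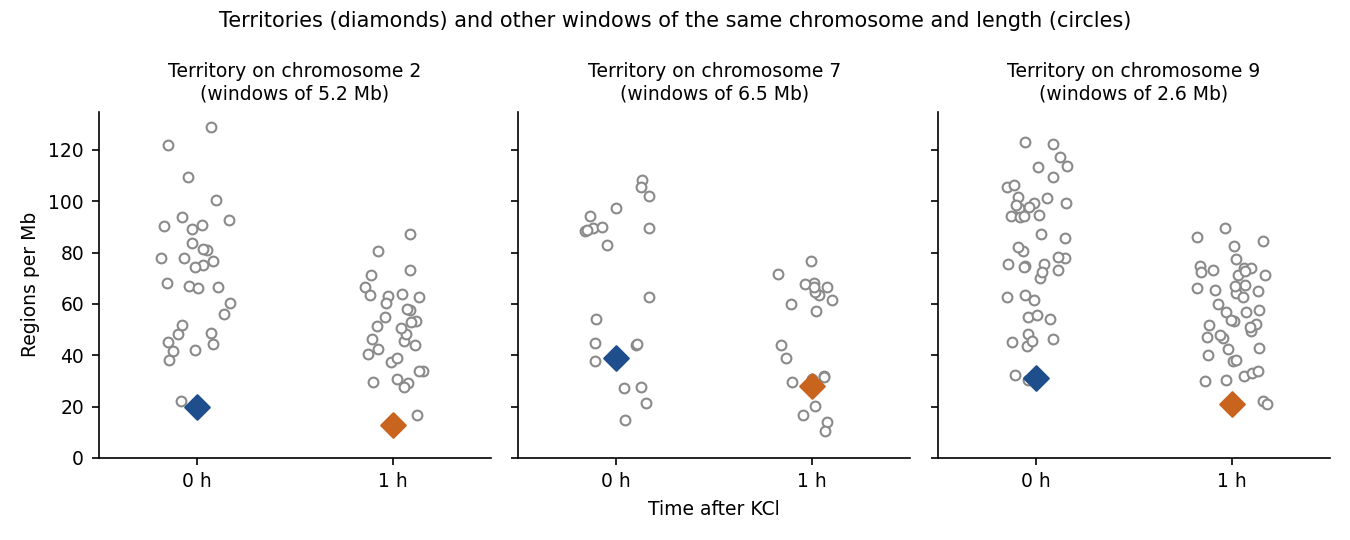
Regions per Mb at 0 h and 1 h in each territory (diamond) and in all other windows of its length on the same chromosome (circles, spread sideways at random). The diamond lies below all circles on chromosome 2 and within the lower range of the circles on chromosome 7.

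Over 1 Mb on each side of a border, fewer regions lay inside than outside at every border, though the first 100 kb inside the left borders still held 10 to 14 regions at 0 h. On chromosome 2, 84 regions lay in the Mb before the left border and 84 in the Mb after the right one at 0 h, against 39 and 20 in the outermost Mb inside. In the 3.2 Mb between there were 13.8 per Mb at 0 h and 7.5 at 1 h. On chromosome 7 the Mb outside held 102 on the left and 86 on the right, and the Mb inside held 31 and 13. On chromosome 9 the numbers were 101 and 127 outside and 35 and 36 inside, with 10 regions in the 0.6 Mb between.

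Members were not spread evenly inside the territories. On chromosome 2, 30 of the 103 regions at 0 h lay in the leftmost 500 kb, and the fullest window of 100 kb, chr2:85000000-85100000, held 14 at 0 h and 9 at 1 h. The next, chr2:85100000-85200000, held 8 and 7. Further right, each full window of 500 kb held 1 to 13 regions at 0 h. The sparsest, chr2:86500000-87000000, held 1 region at 0 h and 0 at 1 h, and chr2:88000000-88500000 held 5 at 0 h and 0 at 1 h. On chromosome 9 the outer parts were the fullest as well. The fullest windows of 100 kb were chr9:37400000-37500000, with 12 at 0 h and 5 at 1 h, and chr9:39400000-39500000, with 8 and 7.

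On chromosome 7 the members gathered in the interior. The windows of 500 kb at chr7:112500000-113000000 and chr7:114500000-115000000, singled out after their values were seen, held 54 and 52 regions at 0 h and 39 and 32 at 1 h. Together they held 106 of the 253 regions at 0 h (41.9%), a density 1.55 times that of the rest of the chromosome. In the remaining 5.5 Mb there were 26.7 and 20.2 per Mb, which is 0.392 and 0.421 of the rest. The fullest windows of 100 kb, chr7:112700000-112800000 and chr7:114500000-114600000, held 16 regions each at 0 h and 12 and 9 at 1 h. Which genes these stretches hold in mm9 was not tested. The RefSeq gene order places stretches of other genes between the Olfr runs of this chromosome, but it could not be aligned with them.

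Over all territories, windows of 100 kb held a median of 2 regions at 0 h, against 7 in the rest of the 3 chromosomes. Of 143 such windows, 17 (11.9%) held no 0 h region and 36 (25.2%) no 1 h region, against 5.45% and 8.00% in the rest. The 17 empty at 0 h were also empty at 1 h. On chromosome 2 the share of empty windows at 0 h was 17.3% against 2.42%. On chromosome 7 it was 10.8% against 12.3% in the rest of that chromosome. That rest includes a stretch of 7105 kb without a region, which counts in its empty windows and in the length behind its density. The shares without that stretch were not computed.

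The longest stretch without a 0 h region inside the chromosome 2 territory ran from 86453740 to 86888710, 435 kb, and at 1 h it grew to 642 kb, from 86371530 to 87013480. Only 2 of 12787 gaps on the rest of the chromosome were longer at 0 h and 1 at 1 h. On chromosome 7 it ran from 115378340 to 115658220 (280 kb), and on chromosome 9 from 38985150 to 39141020 (156 kb), with 13 and 9 longer gaps elsewhere on those chromosomes. Neighbouring members on chromosome 2 lay a median of 27.2 kb apart at 0 h, against 7.66 kb in the rest, and 5.88% of their gaps were under 2 kb, against 16.2%. On chromosomes 7 and 9 gaps under 2 kb made up 16.3% and 17.5%, close to the 16.6% and 17.1% of the rest, while the median gaps of 10.6 and 16.4 kb exceeded 7.25 and 7.32 kb. Regions there were fewer, but members that lay close together were about as large a share of neighbours as elsewhere.

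Members were slightly narrower than regions elsewhere. Their median width was 180 bases at 0 h (quartiles 110 and 260, exact 95% interval of the median 170 to 190) against 210 in the rest (quartiles 120 and 300). At 1 h it was 180 (interval 160 to 200) against 210. By territory the medians at 0 h were 160 on chromosome 2, 190 on chromosome 7 and 160 on chromosome 9. The difference lay more at the wide end: 17.8% of members at 0 h were at least 300 bases wide (95% exact Clopper-Pearson interval 14.4% to 21.8%) against 26.2% of the rest, while 20.6% were under 100 bases (interval 16.9% to 24.7%) against 18.8%. Intervals of shares and medians cover counting error only and treat regions of a list as independent, so they do not compare conditions.

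Few members were wide. Only 10 of 437 reached 500 bases at 0 h (2.29%, against 4.77% of the rest), 7 of them on chromosome 7, 3 on chromosome 2 and 0 on chromosome 9. Of those 7, 6 lay in the pair of crowded stretches. The widest member, chr7:112575230-112576060, was 830 bases wide at 0 h and was met at 1 h by 2 regions of together 440 bases. The next on that chromosome, chr7:112932730-112933520 and chr7:114760630-114761360, were 790 and 730 bases wide and had 1 h counterparts of 720 and 740 bases. At 1 h the 3 widest there also included chr7:112754480-112755210, at 730 bases against 680 at 0 h. Elsewhere on the 3 chromosomes 358 regions were wider than the widest member at 0 h.

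The widest member on chromosome 2, chr2:87938170-87938960, stood in the sparse interior. It was 790 bases wide at 0 h with centres in both columns, and 610 bases wide at 1 h, when only the first column had a centre. The others named there were chr2:87366090-87366640, with 550 bases at both times, and chr2:85038740-85039280, with 540 at 0 h and 510 at 1 h. The widest on chromosome 9 stood near its left border. They were chr9:37433240-37433730 (490 and 430 bases), chr9:37559000-37559490 (490 at both times) and chr9:37622240-37622660 (420 at both times).

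Support by both replicate columns was lower inside the territories. Of the 437 members at 0 h, 205 had centres in both columns, 46.9% (95% exact Clopper-Pearson interval 42.2% to 51.7%), against 62.5% of the rest of the 3 chromosomes and 61.0% of the whole list. At 1 h 125 of 304 had both, 41.1% (interval 35.5% to 46.9%), against 56.3% of the rest and 54.8% of the whole list. By territory the 0 h shares were 46.6% on chromosome 2, 49.8% on chromosome 7 and 38.3% on chromosome 9, against 61.6%, 62.6% and 63.7%. The missing centres were mostly those of the second column. A first-column centre was held by 87.9% of members at 0 h and 89.97% of the rest, and a second-column centre by 59.0% and 72.5%. At 1 h the shares were 93.1% and 93.6% for the first column and 48.0% and 62.7% for the second. The second column was the shorter one in both lists. Where both centres were present, they lay a median of 10 bases apart inside and outside the territories, at both times.

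Width moved with this difference. When the rest was weighted to the members' mix of 4 width classes, its both-column share came to 56.4% at 0 h and 49.3% at 1 h, above the members' 46.9% and 41.1%. Within width classes at 0 h, both columns supported 30.3% of members from 100 to under 200 bases (interval 23.2% to 38.2%) against 42.7% of the rest, and 71.1% of those from 200 to under 300 bases (interval 61.8% to 79.2%) against 84.9%. Of those of at least 300 bases it was 91.0% (interval 82.4% to 96.3%) against 97.5%. Under 100 bases the share was low in both, 6.67% and 8.43%.

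Local density moved with it too. Support was lower in sparse parts of chromosomes 1 to 19 outside the territories as well, rising from 44.6% in windows of 1 Mb with up to 20 regions at 0 h to 64.9% in windows with over 80. In windows with up to 20 regions, members had a both-column share of 43.6% at 0 h (interval 33.4% to 54.2%), and in windows with 21 to 40 regions 46.6% (interval 38.4% to 55.0%), against 48.4% outside. In windows with 61 to 80 regions, which hold the crowded stretches of chromosome 7 and some of the border windows, the members' share of 48.7% (interval 41.5% to 56.0%) lay below the 59.8% found outside. At 1 h the members' shares in these 3 classes were 29.0%, 40.2% and 47.4%, against 31.5%, 39.0% and 52.7%. In the sparse classes, then, members had about the support of regions in equally sparse windows elsewhere, and the intervals are too wide to tell differences of several percentage points. This comparison was chosen after the values were seen. The part of local density in the lower support was not tested.

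**Figure D4:**
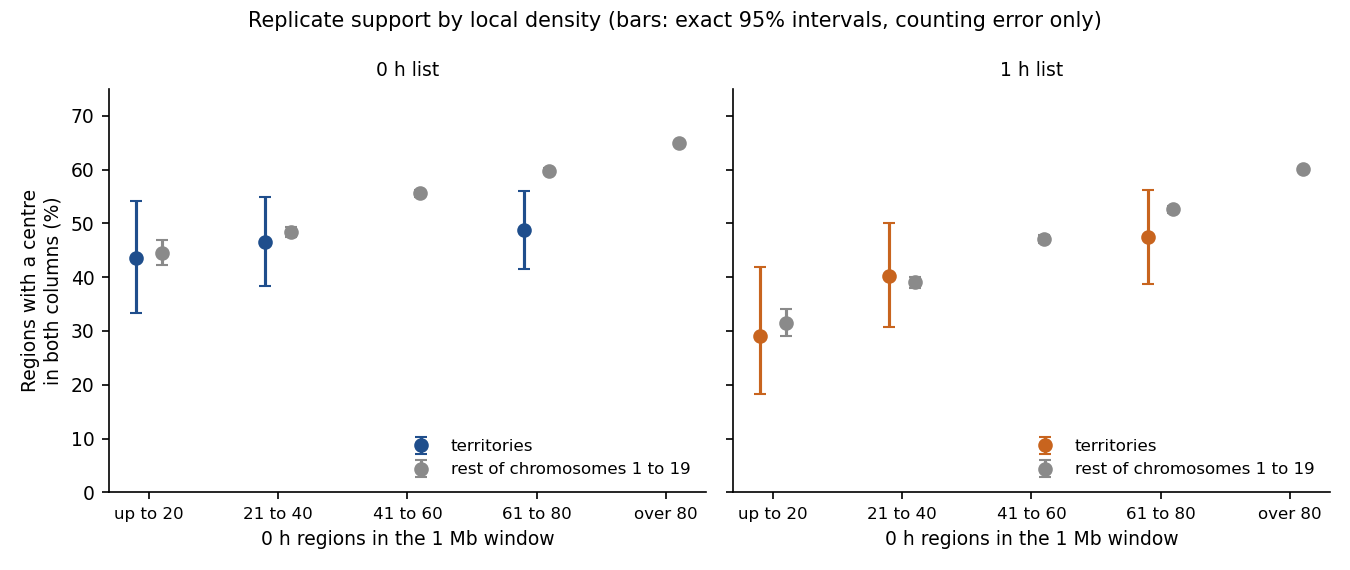
Share of regions with a centre in both columns, in percent, by the number of 0 h regions in their window of 1 Mb, for members (coloured) and for all other regions of chromosomes 1 to 19 (grey), with exact 95% intervals. The grey values rise with density, and the coloured points rise too, but with intervals that overlap between classes. The members' intervals take in the grey value in the classes up to 40 regions at both times.

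Retention from 0 h to 1 h was close to that elsewhere. Of the 437 members at 0 h, 276 overlapped a 1 h region by at least 1 base, 63.2% (95% exact Clopper-Pearson interval 58.4% to 67.7%). In the rest of the 3 chromosomes it was 65.3%, and in the whole list 65.4%. The shares were 60.2% on chromosome 2 (interval 50.1% to 69.7%), 65.6% on chromosome 7 (interval 59.4% to 71.4%) and 59.3% on chromosome 9 (interval 47.8% to 70.1%), against 64.9%, 65.4% and 65.8%, and each interval takes in the value of its rest. By column, 67.4% of members with a first-column centre and 74.0% of those with a second-column centre were retained, against 70.8% and 75.03%. The number of listed regions fell in the same proportion: the 1 h list held 69.6% as many members as the 0 h list, against 70.1% in the rest. With only regions holding a second-column centre at 1 h, that is without the first 1 h column, retention in the territories differed from the rest by -10.04 percentage points, in place of -2.17.

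Retention rose with width and with replicate support inside the territories as outside. It was 16.7% for members under 100 bases, 51.6% from 100 to under 200, 93.0% from 200 to under 300 and 96.2% from 300 bases, against 16.8%, 44.5%, 87.1% and 98.0%. With both columns it was 84.9% (interval 79.2% to 89.5%) against 84.5%, with the first only 47.5% (interval 39.99% to 55.1%) against 39.7%, and with the second only 32.1% (interval 19.9% to 46.3%) against 16.2%. The counts behind the single-column shares were 85 of 179 and 17 of 53, and both intervals lie above the value of the rest. When the rest was weighted to the members' mix of width and support, its retention came to 58.5%, just above the lower bound of the members' interval and 4.70 percentage points under their share.

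**Figure D5:**
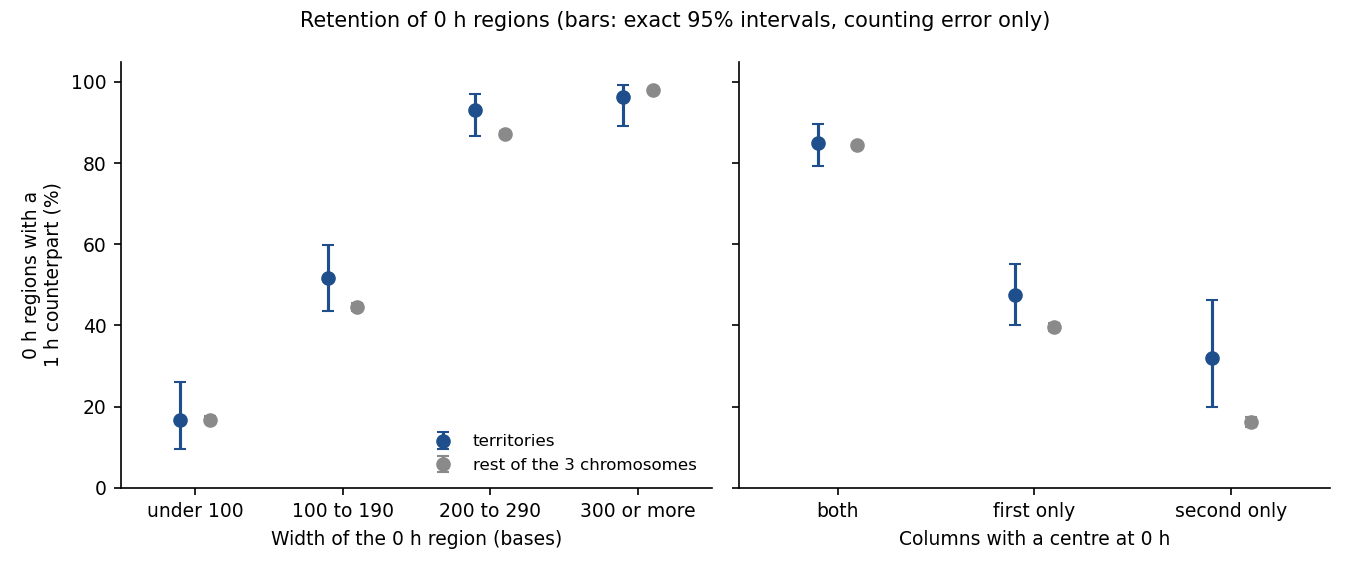
Share of 0 h regions with a 1 h counterpart, in percent, by width (left) and by replicate support (right), for members (blue) and the rest of the 3 chromosomes (grey), with exact 95% intervals. Both follow the same order, and the blue points lie above the grey ones for regions with a centre in 1 column only.

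Most retained members were narrower at 1 h, as were most other retained regions. Of 275 retained members met by exactly 1 region, 188 (68.4%) were narrower at 1 h, against 71.8% in the rest, and the median ratio of 1 h to 0 h width was 0.903 (quartiles 0.641 and 1) against 0.897. Retained members had a median width of 230 bases and those not retained 110, against 270 and 100 in the rest.

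Of the 205 members with both centres at 0 h, 31 had no 1 h counterpart, 15.1% (interval 10.5% to 20.8%), against 15.5% in the rest and 15.1% in the whole list. By territory they were 22 of 126 on chromosome 7 (17.5%), 6 of 48 on chromosome 2 (12.5%) and 3 of 31 on chromosome 9 (9.68%). The rest of these chromosomes gave 14.9%, 15.9% and 15.6%. The widest of the 31 members were chr7:112827590-112828120 (530 bases) and chr7:112626570-112626940 (370 bases), both in the left crowded stretch. On chromosome 2 the widest were chr2:85742130-85742300 (170 bases) and chr2:85572810-85572970 (160 bases), and on chromosome 9 chr9:39424600-39424800 (200 bases) and chr9:38121320-38121500 (180 bases). The last 4 were no wider than 200 bases, near the median of the members, whereas the region of 530 bases was among the 10 widest members at 0 h.

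Members listed only at 1 h were few, and nearly all had a centre in 1 column, as did such regions of the rest. They numbered 27 of 304, or 8.88%, against 6.17% in the rest and 6.69% in the whole list. They were 10 to 160 bases wide with a median of 80, with 25 supported by the first column alone and 1 by the second alone. Both centres were held by 1 of the 27, against 53 of 1385 such regions in the rest. Of all 1 h members with a first-column centre only, 84.2% had a 0 h counterpart, against 86.8% in the rest. With the second only it was 95.2% (20 of 21) against 84.4%. The 5 widest members listed only at 1 h were chr7:109759850-109760010 (160 bases), chr7:110402670-110402820 and chr7:112388190-112388340 (150 bases each), chr2:88872680-88872820 and chr7:111139830-111139970 (140 bases each). All 5 had a first-column centre only. The 1 such member with both centres, chr9:37434580-37434630, was 50 bases wide. It lay to the right of the 0 h region chr9:37433240-37433730, one of the pair of widest members of that territory. For both-column regions this is 0.800% of 125 members (interval 0.0203% to 4.38%), against 0.419% in the rest and 0.435% in the whole list.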

How the data were processed

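RFX-DN ChIP-seq was analysed from lists of bound regions that the authors deposited, 1 for each group of 2 libraries. Per the file headers, each list gives a chromosome number, a start, an end and the columns c1 and c2. The latter hold either -1 or a coordinate within the region, and they were read as the peak centres of the 2 replicates. Per the submitters' processing notes, the tools and builds include Bowtie and mm9. The calling of peaks, their combining over replicates and the depth are matters not given in the sources used here, and whether positions count from 0 or 1 is unknown.

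Regions overlapping a territory by at least 1 base were members, and the rest of chromosomes 2, 7 and 9 ran from the first to the last listed region. A counterpart was any overlap of at least 1 base. Shares carry exact Clopper-Pearson intervals at 95%, and medians exact order-statistic intervals. Density ratios of 2 columns against 2 were compared by a two-sided exact permutation test. Named regions were the 3 widest of each territory and list, the 2 widest both-column 0 h regions of each without a counterpart, the 5 widest 1 h regions without one, and the 2 fullest windows of 100 kb and longest gap of each territory. The territories, tests and alternatives were chosen with earlier results of these data known. The overlap code was tested on simulated lists. The 52 reporter and plasmid libraries and 2 input libraries were not analysed here. Python 3.11.15, pandas 2.3.3 and scipy 1.17.1 were used.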

Additional observations from a re-analysis of the deposited data

How the results depend on the processing

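Over 8 results 94 alternatives were computed. In 79 the value kept its direction and, where the result had an error range, stayed within it. The change of the density ratio had no such range, and all its alternatives of the same sign are among the 79. Densities in the territories stayed below the rest in all 24 run. The density ratio was 0.415 at 0 h and 0.412 at 1 h for listed regions. It was 0.311 and 0.301 for regions with centres in both columns, 0.498 and 0.503 without the territory on chromosome 2, and 0.309 and 0.292 without that on chromosome 7. With 1 replicate column left out it was 0.337 to 0.405 at 0 h and 0.315 to 0.409 at 1 h, lowest without the first column each time. The change of the ratio, -0.00884, ran from -0.0559 to 0.0383 with 1 column left out, and was positive (0.0249 and 0.0383) without the first 0 h or the second 1 h column. Retention differed from the rest by -2.17 percentage points, and by 4.70 when the rest was weighted to width and support, and with 1 column left out the difference ran from -10.04 (without the first 1 h column) to -0.996 points. Weighted to local density, an alternative chosen after seeing the data, the both-column share differed from chromosomes 1 to 19 by -5.76 points at 0 h and -2.43 at 1 h, in place of -15.6 and -15.2 against the rest. The median width at 0 h, 30 bases below the rest, lay 50 below it (a difference of -50) without the territory on chromosome 7. The causes of these shifts were not tested. No paired analysis was possible because neither centre column could be assigned to a numbered library. The depth of the libraries is unknown, which leaves the smallest detectable peak unknown too.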
